A study of Mus musculus with 37 samples.

Results

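The 34 genes described here are the rows that the deposited count table places on the mitochondrial chromosome, chrM: 13 protein-coding genes, 2 ribosomal RNA (rRNA) genes and 19 transfer RNA (tRNA) genes, of 32108 genes in all. They were chosen by chromosome alone, not by any measured value. The study used translating ribosome affinity purification (TRAP), in which tagged ribosomes of one cell type are pulled down and the RNA held with them is sequenced, to profile podocytes, the filtering epithelial cells of the glomerulus, in a type 2 and a type 1 mouse model of diabetic kidney disease. There were 36 TRAP libraries and 1 library of whole-kidney total RNA, all from C57BL/6 mice. The deposited data of all libraries carry the name PodocinCre TRAP. Beyond that name, the labels do not say how the ribosomes were tagged. They also do not say whether replicates were separate animals, so p-values below measure the spread between libraries.

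In the type 2 model the controls were eNOS-/- mice, which lack endothelial nitric oxide synthase, and the diabetic mice were eNOS-/- db/db, which also lack a working leptin receptor. Controls and diabetic mice thus both carry the eNOS deletion. There were 5 control and 5 diabetic libraries at 3 months of age, and 4 control and 3 diabetic libraries at 6 months. In the type 1 model, for which the labels give no genotype beyond the strain, diabetes was induced with streptozotocin (STZ), a toxin of the insulin-producing beta cells. There were 4 untreated and 5 STZ-treated libraries at 3 weeks of STZ (3 months of age), and 5 untreated and 5 STZ-treated libraries at 24 weeks (8 months of age). The whole-kidney library came from an eNOS-/- control at 3 months and is labelled total RNA, whereas the TRAP libraries are labelled polyA RNA.

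The mitochondrial chromosome is a small circle transcribed from both strands into long transcripts that are cut at the tRNAs between the genes. Its protein-coding genes encode subunits of 4 enzymes of oxidative phosphorylation: complex I (the mt-Nd genes), complex III (mt-Cytb), complex IV (mt-Co1, mt-Co2 and mt-Co3) and ATP synthase, also called complex V (mt-Atp6 and mt-Atp8). Its rRNAs, mt-Rnr1 and mt-Rnr2, form the mitochondrial ribosome, which reads the mitochondrial mRNAs with the chromosome's own tRNAs. Cytosolic ribosomes, the ones TRAP pulls down, do not read these transcripts, and kidney tubule cells are known for their many mitochondria.

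Many of these genes have near-identical copies in the nuclear genome, which bears on how reads of them were counted. Stretches from the first 61 bases of 3 pairs are printed, from GENCODE M21 transcripts (GRCm38), written 5′ to 3′ on the strand of the gene. Capitals mark bases that differ within a pair. The pair of mt-Co2 (chrM:7013-7696, plus strand, protein-coding, complex IV) and its chromosome 1 pseudogene Gm28661 (chr1:24614885-24615565, minus strand) shows an exact copy. The pair of mt-Nd3 (chrM:9459-9806, plus strand, complex I) and Gm28438 (chr1:24612775-24613119) holds 1 mismatch in 345 aligned bases. The pair of mt-Cytb (chrM:14145-15288, plus strand, complex III) and Gm11410 (chr4:80003989-80005131) is more diverged, at 92.9% identity over 1142 bases.
mt-Co2: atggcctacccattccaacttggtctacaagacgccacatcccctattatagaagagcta
Gm28661: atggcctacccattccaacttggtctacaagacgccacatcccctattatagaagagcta
mt-Nd3: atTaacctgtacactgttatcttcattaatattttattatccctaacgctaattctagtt
Gm28438: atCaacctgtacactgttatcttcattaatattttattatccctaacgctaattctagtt
mt-Cytb: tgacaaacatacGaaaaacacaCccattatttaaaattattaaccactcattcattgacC
Gm11410: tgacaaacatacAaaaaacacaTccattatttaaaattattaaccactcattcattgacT

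A read that lies wholly in such an exact stretch has 2 equal places in the genome. Of the 13 mRNAs, 4 matched a chromosome 1 pseudogene at 100% identity over at least 99.0% of their length: mt-Co2 over 681 bases, mt-Atp6 over 678 bases (Gm10925, chr1:24613974-24614651), mt-Co3 over 783 bases (Gm28437, chr1:24613189-24613971) and mt-Nd4l over 294 bases (Gm10222, chr1:24612407-24612700). The first 63.6% of mt-Nd4 matched Gm28439 (chr1:24611535-24612410) exactly over 876 bases. The best copy of mt-Co1 had 97.6% identity over all 1545 bases, with 37 mismatches (Gm13340, chr2:22588103-22589647). The longest exact run that mt-Co1 shared with any annotated transcript was 479 bases. Among annotated transcripts, the only sequence searched, the best copies of mt-Nd2, mt-Nd5, mt-Nd6, mt-Cytb and mt-Rnr2 had between 88.5% and 96.7% identity. Those of mt-Atp8 and mt-Nd1 had 81.4% and 76.6%, and mt-Rnr1 had no match. Closer copies in unannotated sequence would be missed. No source used here says how the study's counting treated reads with several places.

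The TRAP libraries held 6702120 to 37786025 gene counts and the kidney library 28033680. The labelled cell type was checked against its markers: all 21 podocyte markers listed, among them Nphs1, Synpo and Wt1, were higher in the 5 type 2 control TRAP libraries at 3 months than in kidney, at a median of 36.2 times. Of 24 proximal tubule markers, 0 were higher in TRAP, at a median of 0.410 times the kidney level, and none was at 0 in any TRAP group. Their summed level in TRAP ran from 5496 to 24746 CPM (counts scaled to the library total, per 1000000 counts). Tubule RNA was therefore present in every TRAP group, and its part in the levels of mitochondrial transcripts was not tested.

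Mitochondrial transcripts made up a small share of every TRAP library, between 0.295% and 1.31% of counts, with a mean of 0.665% ± 0.275 (SD, n = 36). In the kidney library the share was 7.5%. Within the mitochondrial counts of all TRAP libraries the mRNAs held 79.0%, the rRNAs 20.8% and the tRNAs 0.173%. In kidney these shares were 73.0%, 27% and 0.0484%.

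By group, the share of counts on chrM was 0.631 ± 0.219% (SD, n = 5) in type 2 controls and 0.538 ± 0.263% (n = 5) in diabetic mice at 3 months. At 6 months it was 0.612 ± 0.362% (n = 4) in controls and 0.405 ± 0.102% (n = 3) in diabetic mice. In the type 1 model it was 0.829 ± 0.375% (n = 4) in controls and 0.596 ± 0.185% (n = 5) in STZ-treated mice at 3 weeks. At 24 weeks it was 0.821 ± 0.297% and 0.809 ± 0.221% (n = 5 each). Control and diabetic libraries overlapped in all 4 comparisons. The mean was lower in the diabetic group in 4 of 4 comparisons, with differences of -0.0931, -0.206, -0.233 and -0.0112 percentage points in the order given. None of these differences exceeded the spread between libraries in two-sided exact permutation tests (p = 0.532, 0.571, 0.254 and 0.952).

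The share of chrM counts taken by the rRNAs varied more, from 4.93% to 50.7% over TRAP libraries. It was 15.7 ± 1.71% and 12.0 ± 6.72% in control and diabetic type 2 mice at 3 months, and 12.4 ± 2.26% and 18.6 ± 5.31% at 6 months. It was 36.4 ± 14.6% and 29.8 ± 4.31% in the type 1 model at 3 weeks, and 18 ± 6.68% and 24.2 ± 8.38% at 24 weeks. The diabetic mean was lower at the early time and higher at the late time in both models, and none of the 4 differences passed (exact permutation p = 0.262, 0.114, 0.365 and 0.238). Over these 8 tests the lowest Benjamini-Hochberg adjusted p was 0.524. The smallest p these designs allow is 0.00794, or 0.0286 for 3 against 4 libraries.

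**Figure D1:**
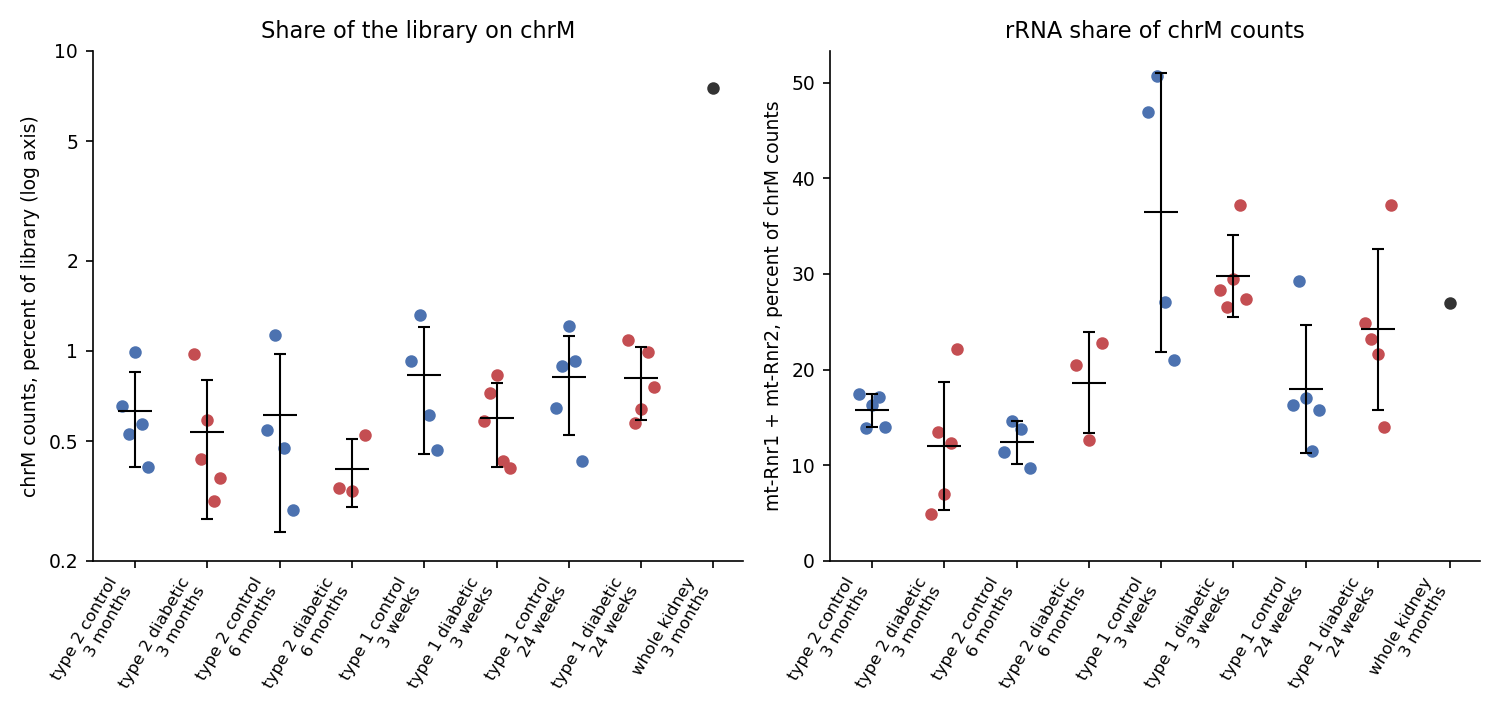
Left, counts on chrM as a percent of the library (log axis); right, mt-Rnr1 plus mt-Rnr2 as a percent of chrM counts. Points are libraries by group, horizontal bars the mean and whiskers the SD; the kidney library lies at 7.5% on the left, above every TRAP library (0.295% to 1.31%), and at 27% on the right, inside their range.

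Per length, mt-Co1, the catalytic core of complex IV, had the highest mean of the 34 genes in TRAP, and a run of 6 neighbouring mRNAs stood far below the other mRNAs. Levels between genes are compared here in FPKM (fragments per kilobase of gene, scaled to the library total), as means over the 27 TRAP libraries other than the 9 of type 1 at 3 weeks, which are given apart below. The mean level of mt-Co1 was 1292 FPKM, with libraries from 456 to 2957. It was followed by mt-Nd6 at 665, mt-Nd1 at 578, mt-Cytb at 569 and mt-Nd5 at 512 FPKM. The rRNAs mt-Rnr1 and mt-Rnr2 had 475 and 425 FPKM, mt-Nd2 474 and mt-Nd4 284. Neighbours in this order, mt-Co1 included, had overlapping ranges over libraries, for example 200.1 to 1952 for mt-Nd6 and 289.7 to 1106 for mt-Nd1. In the 9 type 1 libraries at 3 weeks the mean of mt-Rnr1 (1105 FPKM) was above that of mt-Co1 (1055 FPKM). In kidney the order differed: mt-Rnr1 was first at 9042 FPKM, then mt-Cytb at 9029.7, mt-Nd1 at 8195 and mt-Co1 at 7739.8.

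The low run comprised all mRNAs between mt-Co1 and mt-Nd4 on the chromosome: mt-Co2 at 21.4 FPKM, mt-Atp8 at 0.908, mt-Atp6 at 13.5, mt-Co3 at 15.0, mt-Nd3 at 6.92 and mt-Nd4l at 16.5. These 6 were grouped after their values were seen, so their level is a description. Their mean FPKM was 1.51% (median; 1.06% to 3.22%) of the mean of their neighbours mt-Co1 and mt-Nd4 in the 27 TRAP libraries, and 2.74% in kidney. They are low in kidney total RNA as well as in TRAP. Of the 6, all but mt-Atp8 matched an annotated chromosome 1 copy of at least 99.7% identity, and unannotated sequence was not searched. Counts of these chromosome 1 copies were also pooled with those of the genes, over the summed length of the genes. The 27 libraries then came to 2.53% (median, from 1.94% to 4.30%) and kidney to 3.89%. This pooled measure differs from the mean FPKM used before, so the rise does not measure the copies alone. The copy of mt-Nd4 was not added to the neighbours. With the copies added, the run stayed below its neighbours in every library, and the part of multiply placed reads was not tested.

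**Figure D2:**
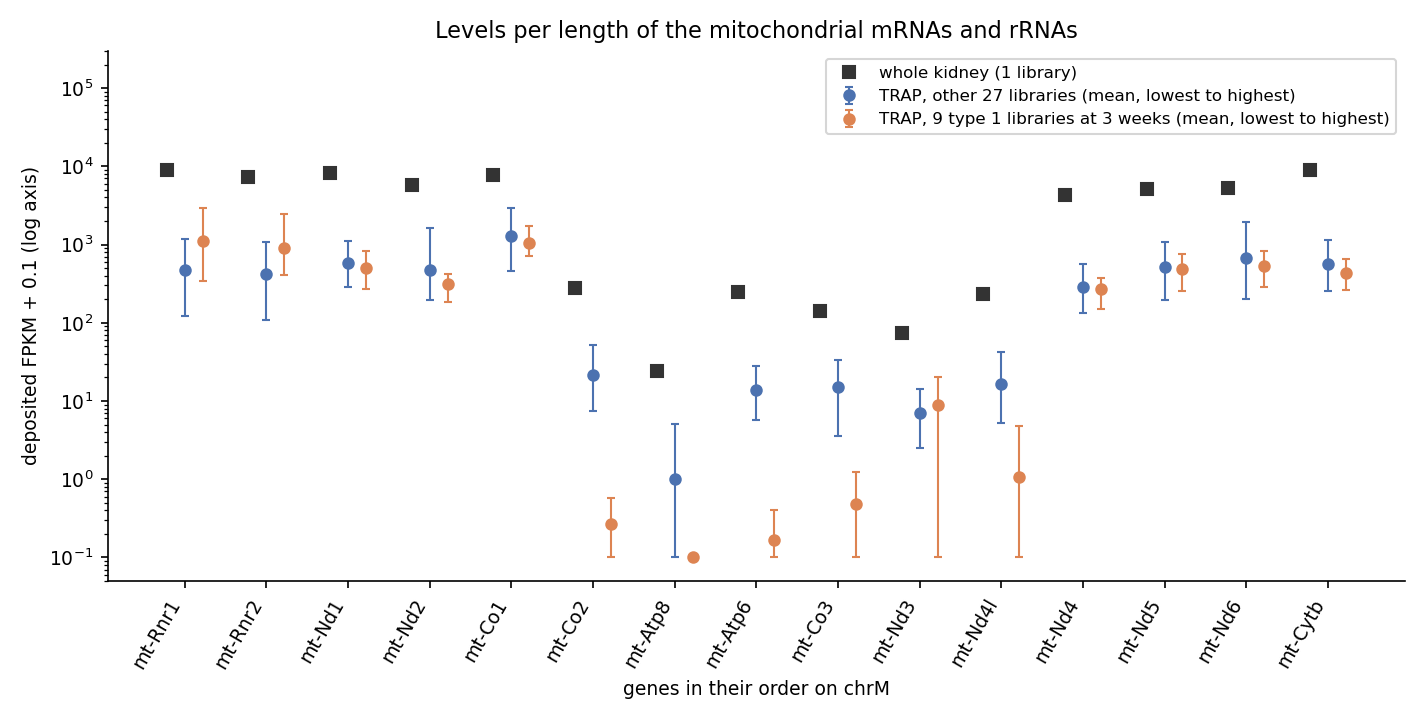
Deposited FPKM + 0.1 (log axis) of the 13 mRNAs and 2 rRNAs in their order on chrM. Squares are the kidney library, circles the mean and bars the lowest to highest TRAP library, for the 9 type 1 libraries at 3 weeks and the other 27; the run from mt-Co2 to mt-Nd4l lies below its neighbours in all, with mt-Co2 at 275 FPKM in kidney, 21.4 in the 27 and 0.171 in the 9.

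The rRNA of the small ribosomal subunit, mt-Rnr1 (chrM:70-1024), had 444, 289, 625, 384 and 209.9 CPM in the 5 type 2 controls at 3 months and 191, 236, 221, 135 and 344 CPM in the 5 diabetic libraries. At 6 months it had 239, 638, 256 and 115 CPM in controls and 312, 187 and 492 CPM in diabetic libraries. Control and diabetic values overlapped at both ages, and 1 control library at 6 months lay above the others. In the type 1 model mt-Rnr1 had 1671, 2821, 633 and 323 CPM in controls and 803, 987, 1249.9, 535 and 469 CPM in STZ-treated libraries at 3 weeks. At 24 weeks it had 422, 1112, 772, 455 and 261 CPM in controls and 1055, 556, 649.8, 519.6 and 1118 CPM in STZ-treated libraries. The highest values of all TRAP libraries were those of 2 control libraries at 3 weeks. The rRNA of the large subunit, mt-Rnr2 (chrM:1094-2675), had group means of 617 ± 245 and 315 ± 115 at 3 months and 493 ± 366 and 450.2 ± 229 at 6 months in the type 2 model (control, then diabetic; SD). Type 1 means were 2047 ± 1483 and 942 ± 212 at 3 weeks and 886 ± 473 and 1145 ± 482 at 24 weeks. At 3 months of age the 2 kinds of control mice are compared below.

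Of the 7 complex I genes, mt-Nd1, mt-Nd2, mt-Nd4, mt-Nd5 and mt-Nd6 were abundant and mt-Nd3 and mt-Nd4l belonged to the low run. The core subunit mt-Nd1 (chrM:2751-3707) had 437, 729.9, 496 and 336 CPM in type 2 controls and 277, 308 and 301 CPM in diabetic libraries at 6 months, and every diabetic value lay below every control value. At 3 months its group means were 631 ± 175 and 444 ± 155 CPM. Type 1 means were 408 ± 53.3 and 536 ± 251 at 3 weeks and 684 ± 288 and 649.6 ± 117 at 24 weeks (control, then STZ-treated). The subunit mt-Nd4 (chrM:10167-11544) had means of 419.8 ± 131 and 348 ± 218 at 3 months and 418 ± 243 and 236 ± 26.9 at 6 months in the type 2 model. Its type 1 means were 394 ± 88.5 and 354 ± 144 at 3 weeks and 444 ± 156 and 428 ± 136 at 24 weeks, with overlapping groups at both times. The subunit mt-Nd5 (chrM:11742-13565) had means of 803 ± 375 and 831 ± 631 at 3 months and 870.5 ± 583 and 788 ± 371 at 6 months in the type 2 model and overlapped between groups at both ages. The mRNA of mt-Nd6 (chrM:13552-14070) is the only one of the 13 on the minus strand, and it ran from 104 to 1013 CPM over TRAP libraries, with type 2 means of 241 ± 96.7 and 368 ± 361 at 3 months and 304 ± 268 and 387 ± 288 at 6 months. Its type 1 means were 249 ± 52.6 and 291 ± 116 at 3 weeks and 346 ± 122 and 434 ± 206 at 24 weeks. Single libraries stood apart for mt-Nd2 (chrM:3914-4951): 1 diabetic library at 3 months had 1384 CPM against 214 to 475 in the other 4, and 1 control at 6 months had 1691 against 223 to 453 in the other 3.

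The complex III subunit mt-Cytb (chrM:14145-15288) had means of 694 ± 269 and 608 ± 420.3 at 3 months and 671 ± 406 and 381 ± 66.5 at 6 months in the type 2 model (control, then diabetic, CPM ± SD). Its type 1 means were 526 ± 159 and 477 ± 164 at 3 weeks and 728 ± 262 and 721 ± 258 at 24 weeks, with overlapping groups. The complex IV core mt-Co1 (chrM:5328-6872) had 1713, 2779, 1792 and 1072 CPM in type 2 controls at 6 months and 873, 1046 and 704 CPM in diabetic libraries. All 3 diabetic values lay below the 4 controls. At 3 months mt-Co1 had means of 2025 ± 611 and 1686 ± 592 CPM, and in the type 1 model 1991 ± 597 and 1340.3 ± 271 at 3 weeks and 2851 ± 1149.6 and 2220.0 ± 681 at 24 weeks. It held 29.4 ± 6.66% of chrM counts over TRAP libraries (n = 36) and 15.9% in kidney. The subunit mt-Co3 (chrM:8607-9390) had 7.98, 16.6, 12.1 and 8.17 CPM in controls and 4.30, 3.52 and 2.69 CPM in diabetic libraries at 6 months, again without overlap. At 3 months its means were 15.0 ± 4.78 and 9.07 ± 3.55 CPM. The ATP synthase subunit mt-Atp6 (chrM:7927-8607) had means of 10.9 ± 4.07 and 6.7 ± 3.59 at 3 months and 8.90 ± 5.41 and 6.38 ± 0.604 at 6 months in the type 2 model, with overlapping groups. Its partner mt-Atp8 (chrM:7766-7969), which overlaps it on the chromosome, had 106 counts over all 36 TRAP libraries and was at 0 in the 9 type 1 libraries at 3 weeks.

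The tRNAs are shorter than the 200-base fragments of the libraries, and all 19 together held 40 to 256 counts in each of the 27 TRAP libraries other than type 1 at 3 weeks. Reads of a tRNA gene can also come from the edges of longer transcripts that span it, and these cannot be told apart here. Over all 36 TRAP libraries the 3 tRNAs with the highest mean count were those for proline, histidine and glutamate, the last through the 9 type 1 libraries at 3 weeks, which held 1054 of its 1197 counts. The proline tRNA mt-Tp (chrM:15356-15422, minus strand) had type 2 means of 2.65 ± 0.98 and 1.96 ± 1.2 at 3 months and 2.12 ± 1.13 and 2.11 ± 0.643 at 6 months (CPM ± SD). Its type 1 means were 2.11 ± 0.999 and 5.64 ± 2.88 at 3 weeks and 1.28 ± 0.569 and 1.46 ± 0.719 at 24 weeks. The highest of these was in STZ-treated mice at 3 weeks. The histidine tRNA mt-Th had type 2 means of 0.678 ± 0.457 and 1.23 ± 0.384 at 3 months and 1.57 ± 1.12 and 1.83 ± 0.410 at 6 months, and type 1 means of 3.30 ± 2.57 and 4.41 ± 3.42 at 3 weeks and 1.78 ± 0.643 and 0.725 ± 0.612 at 24 weeks. The glutamate tRNA mt-Te had at most 29 counts in any of the 27 libraries and 52 to 294 in the 9 type 1 libraries at 3 weeks. Among the others mt-Tg was at 0 in all 37 libraries, and mt-Tv and mt-Ts1 at 0 in 34 each. Over TRAP libraries mt-Tl2, mt-Tc and mt-Ts2 summed to 701, 583 and 516 counts. The remaining 10 (mt-Tl1, mt-Tr, mt-Tm, mt-Ty, mt-Tn, mt-Ti, mt-Ta, mt-Tw, mt-Tq and mt-Tt) ran from 47 to 237 counts each.

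The 9 type 1 libraries at 3 weeks differed from the other 27 TRAP libraries in 2 groups of genes. Of the low run, mt-Co2, mt-Atp6 and mt-Co3 had at most 8, 4 and 17 counts in the 9 libraries, untreated and STZ-treated, and at least 93, 45 and 18 in the other 27. For mt-Nd4l the highest of the 9 (21 counts) overlapped with the lowest of the 27 (18 counts), and mt-Atp8 was at 0 in all 9 and in 11 of the 27. Several tRNAs were higher in the 9 libraries. The 6 genes of the run summed to 2 to 141 counts in the 9 libraries and to 217 to 1603 in the other 27, with no overlap. The tRNAs took 0.227% to 0.628% of chrM counts in the 9 and 0.0529% to 0.193% in the 27, also with no overlap, and 0.0484% in kidney.

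In counts, mt-Co2 had 0, 0, 0 and 4 in the 4 controls and 8, 5, 2, 0 and 1 in the 5 STZ-treated libraries at 3 weeks. At 24 weeks it had 243, 373, 502, 342 and 171 in controls and 210, 220, 198, 349 and 336 in STZ-treated libraries. Its exact copy Gm28661 moved with it, with at most 5 counts in any of the 9 libraries at 3 weeks and 18 to 44 in the 10 at 24 weeks. Counted reads of this sequence were thus nearly absent from both places at 3 weeks, and reads left uncounted cannot be seen here. For mt-Atp6 the counts were 0, 0, 0 and 4 in controls and 2, 2, 0, 0 and 0 in STZ-treated libraries at 3 weeks. They were 125, 201, 272, 192 and 75 in controls and 72, 85, 115, 303 and 216 in STZ-treated libraries at 24 weeks. Again the 2 times did not overlap. For mt-Co3 no 3-week library had more than 17 counts and no 24-week library fewer than 102. One gene inside the run did not follow it: mt-Nd3, whose copy is printed above with its single mismatch, had 40, 46, 30 and 48 counts in controls and 76, 109, 121, 0 and 10 in STZ-treated libraries at 3 weeks. At 24 weeks it had 27, 50, 39, 59 and 42 in controls and 39, 24, 37, 48 and 22 in STZ-treated libraries, within the range of the 3-week values. Its copy Gm28438 likewise had 14 to 253 counts at 3 weeks and 24 to 213 at 24 weeks. The next gene past the run, mt-Nd4, of which the first part has an exact copy, had mean levels of 269.7 FPKM in the 9 libraries and 284 in the 27. That copy, Gm28439, had 5, 2, 11 and 24 counts in controls and 6, 5, 9, 10 and 1 in STZ-treated libraries at 3 weeks. At 24 weeks it had 74 to 185, with no overlap. The level of mt-Nd4 covers the whole gene, and reads of its shared part were not counted apart.

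Of the tRNAs, mt-Te had 106, 294, 92 and 113 counts in controls and 147, 80, 105, 65 and 52 in STZ-treated libraries at 3 weeks. At 24 weeks it had 1, 0, 0, 7 and 2 in controls and 5, 1, 0, 24 and 0 in STZ-treated libraries, with no overlap. The leucine tRNA mt-Tl1 had 31, 24, 43 and 26 counts in controls and 23, 29, 42, 0 and 9 in STZ-treated libraries at 3 weeks, and 2 counts in 1 library in all at 24 weeks. The isoleucine tRNA mt-Ti had 1, 12, 0 and 19 counts in controls and 13, 25, 50, 23 and 12 in STZ-treated libraries at 3 weeks, and 1 count in 1 library at 24 weeks. Both untreated and STZ-treated libraries at 3 weeks showed the pattern. The labels give no batch or date for these libraries. Within the type 1 model how they were handled, their time and their age cannot be told apart. Type 2 libraries at 3 months, the same age, had 99 to 583 counts of mt-Co2 and 0 to 16 of mt-Te. Whether the reads of these 9 libraries were processed in another way was not tested. The rRNA share of chrM counts overlapped between the 9 (21% to 50.7%) and the 27 (4.93% to 37.2%).

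**Figure D3:**
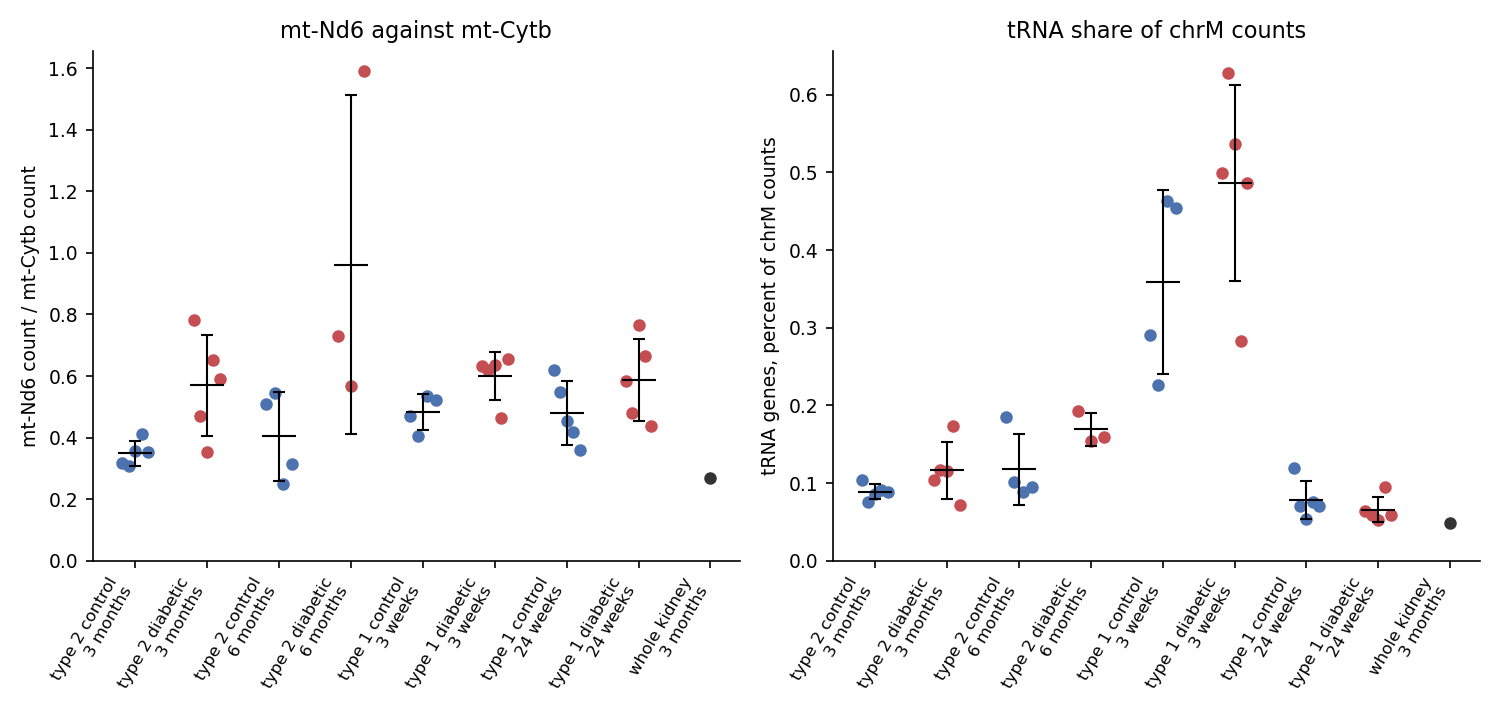
Left, the count of mt-Nd6 divided by that of mt-Cytb; right, the 19 tRNA genes as a percent of chrM counts. Points are libraries, horizontal bars the mean and whiskers the SD by group; the 9 type 1 libraries at 3 weeks lie at 0.227% to 0.628% on the right, above the other 27 (0.0529% to 0.193%), and the diabetic means on the left lie above the control means in all 4 pairs.

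Mitochondrial mRNAs and rRNAs were all far lower in the podocyte pulldown than in whole kidney. The 5 type 2 control TRAP libraries at 3 months were compared with the kidney library, which has the same genotype and age, as mean CPM with 0.5 added. With 1 kidney library there is no test, and the pulldown and the labelled kind of RNA (polyA in TRAP, total in kidney) cannot be told apart. All 13 mRNAs and both rRNAs were lower in TRAP, by 5.91 times (mt-Co1) to 22.1 times (mt-Rnr1).

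For mt-Rnr1 the kidney library had 8635 CPM (exact 95% Poisson interval 8601 to 8670, counting error only), and the TRAP libraries 210.0 to 625 CPM. For mt-Co1 the kidney library had 11958 CPM (11918 to 11999), and TRAP 1543 to 3088 CPM. The kidney value lay above every TRAP value for all 15. By role, mt-Rnr1 and mt-Rnr2 were 22.1 and 18.8 times lower, and the complex III gene mt-Cytb 14.9 times. The complex I genes were lower by 14.2 (mt-Nd4), 14.2 (mt-Nd2), 12.5 (mt-Nd4l), 12.4 (mt-Nd1), 11.5 (mt-Nd5 and mt-Nd6) and 7.64 times (mt-Nd3). In complex IV, mt-Co2 was lower by 10.6 times, mt-Co3 by 7.27 and mt-Co1 by 5.91. In ATP synthase, mt-Atp6 was lower by 14.8 times and mt-Atp8 by 6.08. The 0.5 CPM added exceeds the TRAP mean of mt-Atp8 (0.379 CPM, against 4.85 CPM in kidney) and pulls its ratio towards 1. Its ratio is therefore not comparable with that of mt-Atp6. The 3 complex IV genes were all among the 5 mRNAs with the smallest ratios as computed, which include mt-Atp8.

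Of the tRNAs only mt-Tp, for proline, had at least 100 kidney counts: it had 670 and was 7.74 times lower in TRAP. The other 18 had at most 2.21 CPM in kidney, where the 0.5 CPM added to both levels pulls a ratio towards 1, so their ratios are not compared with those of the mRNAs. Of 14306 genes with at least 1 CPM in kidney or TRAP, 37 were at least 5 times lower in TRAP (0.259%), and 16 of these 37 were mitochondrial: the 13 mRNAs, both rRNAs and mt-Tp. Another 8 of the 37 were identified here as nuclear copies of mitochondrial genes, led by Gm10925 (12.0 times) and Gm28661 (9.41 times). The remaining 13 included the RNA polymerase III transcripts Rn7sk (10.6 times) and Rpph1 (8.42 times). They also held the chromosome 2 pseudogene Gm13341 (10.8 times), so further copies may be among them. The median over all genes was 1.01 times the kidney level in TRAP. Against the background of 0.259%, the mRNAs, rRNAs and mt-Tp all fell in the small set that was at least 5 times lower.

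**Figure D4:**
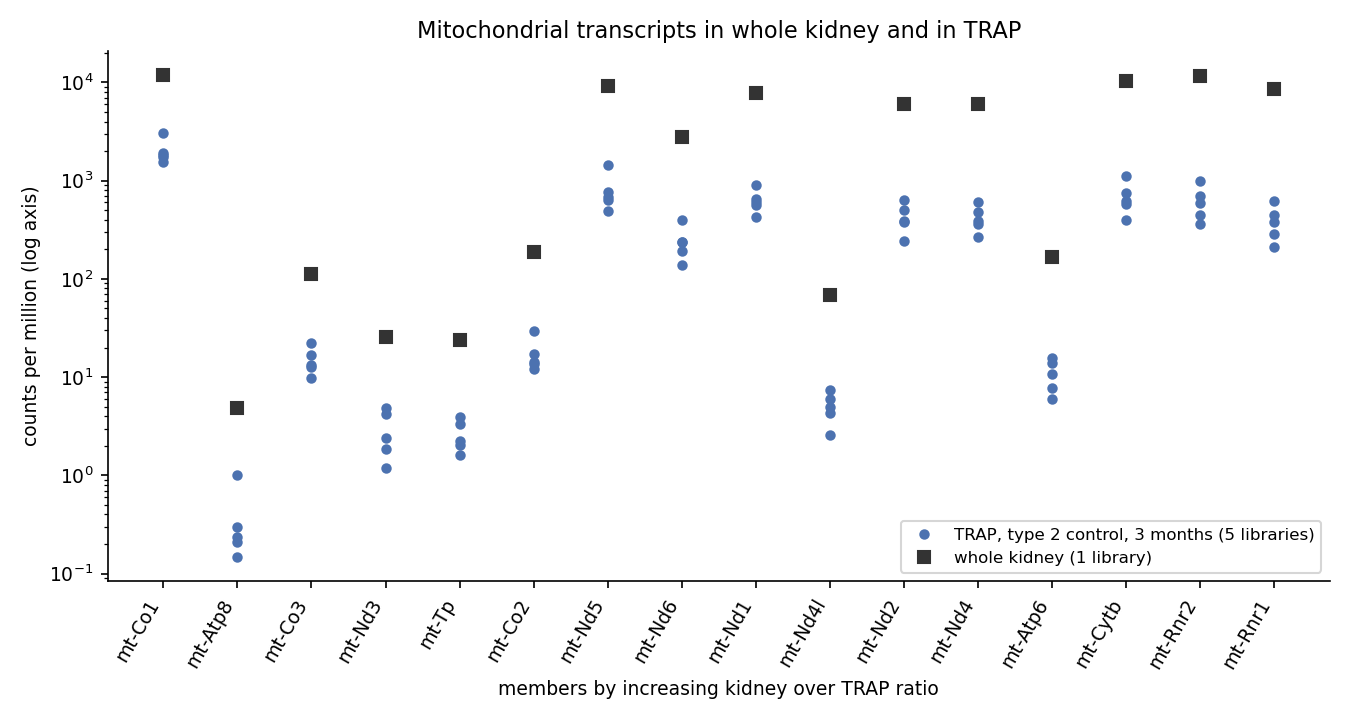
CPM (log axis) of the 16 mitochondrial genes with at least 100 kidney counts, ordered by the ratio of kidney to TRAP. Squares are the kidney library and circles the 5 type 2 control TRAP libraries at 3 months; the kidney value lies above all 5 for each gene, from 5.91 times the mean for mt-Co1 to 22.1 times for mt-Rnr1.

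In type 2 diabetic podocytes at 3 months none of 19 mitochondrial genes tested passed the threshold, an adjusted p under 0.05 in edgeR's quasi-likelihood test with Benjamini-Hochberg adjustment over all genes. Over all 17180 genes tested, 3.99% did. Of the 19, 5 had an unadjusted p under 0.05, as did 2779 of all 17180 genes. The 5 all had lower values in diabetic mice: mt-Co2, mt-Co3, mt-Rnr2, mt-Nd1 and mt-Atp6. The nearest to the threshold was mt-Co2, with a log2 change of -1.18 (SE 0.33, adjusted p = 0.0525). It had 17.1, 14.3, 29.3, 12.1 and 13.5 CPM in controls and 11.5, 8.02, 10.5, 5.2 and 4.99 CPM in diabetic libraries, and the groups did not overlap. Without 1 diabetic library (replicate 1, the one with high mt-Nd2) mt-Co2 passed. DESeq2 also called mt-Co2 and no other of the 19, and limma called 0. The log2 changes of the others were -1.03 for mt-Rnr2, -0.81 for mt-Co3, -0.79 for mt-Atp6 and -0.60 for mt-Nd1. The 15 genes not tested, for low counts, were mt-Atp8 and 14 tRNAs. The median log2 change of the 12 mRNAs tested was -0.37, with 10 below 0, against 0.04 over all genes. In the same comparison 8 of 24 proximal tubule markers and 1 of 21 podocyte markers fell, and 2 of 9 mesangial and smooth muscle and 2 of 7 parietal epithelial markers rose. The summed mesangial and smooth muscle markers ran from 149.5 to 176 CPM in controls and from 225 to 905 in diabetic libraries, with no overlap. A further fit also took in each library's proximal tubule marker score (the mean log2 CPM of the list). In it mt-Co1 changed sign, as listed in the section on processing, and 0 mitochondrial genes passed. A fit that took in the podocyte score instead called mt-Co2 alone of the mitochondrial genes. The part of the mesangial and smooth muscle and parietal epithelial markers was not tested.

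At 6 months 3 of 19 mitochondrial genes (15.8%) passed and all 3 fell in diabetic mice. Of all 17180 genes 22.9% passed in either direction and 11.7% passed with a fall. They were mt-Co3, mt-Co1 and mt-Nd1, whose values in every library are given above. The log2 change was -1.88 (SE 0.38, adjusted p = 0.00262) for mt-Co3, -1.31 (SE 0.35, adjusted p = 0.0124) for mt-Co1 and -1.0 (SE 0.30, adjusted p = 0.0225) for mt-Nd1. In none of the 3 did control and diabetic libraries overlap. The exact copy of mt-Co3, Gm28437, had 90, 131, 41 and 51 counts in controls and 88, 63 and 13 in diabetic libraries, with overlap. The diabetic counts of mt-Co3 itself were 96, 62 and 18, and gene and copy together were not tested. The complex I gene mt-Nd4 had -1.07 (SE 0.45, adjusted p = 0.0946) and the complex III gene mt-Cytb -1.07 (SE 0.50, adjusted p = 0.131), and neither passed. The log2 change was -0.18 for mt-Rnr1, -0.40 for mt-Rnr2 and 0.07 for mt-Nd6. The median over the 12 mRNAs tested was -0.93, with 10 below 0, against -0.01 over all genes.

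The 6-month calls rest in part on single libraries. Without diabetic replicate 3, which had the smallest library of the series, mt-Co3 alone passed (adjusted p = 0.0636 for mt-Co1 and 0.0749 for mt-Nd1), and 1932 genes passed in all against 3934. Without control replicate 2, or without diabetic replicate 1, mt-Nd1 had an adjusted p of 0.0694 or 0.0650 and the other 2 passed. Cell-type markers moved in the same comparison: 17 of 21 podocyte markers and 16 of 24 proximal tubule markers fell. In the other direction 5 of 10 macrophage, 5 of 9 mesangial and smooth muscle and 6 of 7 parietal epithelial markers rose. The summed parietal epithelial markers ran from 126 to 196 CPM in controls and from 288 to 609 in diabetic libraries, and the mesangial and smooth muscle markers from 144.5 to 197 and from 312 to 798. The summed podocyte markers ran from 28905 to 34185 CPM in controls and from 5296 to 20333 in diabetic libraries, and the summed proximal tubule markers from 13961 to 17719 and from 5496 to 12093. With either marker score as a covariate none of the 3 genes passed, and 130 (podocyte) and 13 (proximal tubule) genes passed in all. In these samples fewer cells of a type and less RNA per cell cannot be told apart.

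In the type 1 model 0 of 28 mitochondrial genes passed at 3 weeks, against 6.5% of all genes. Of the 28, 3 had an unadjusted p under 0.05, as did 3394 of all 16279 genes. The 3 were mt-Rnr2 with a log2 change of -1.30 (SE 0.47, adjusted p = 0.105), mt-Co1 with -0.73 (SE 0.28, adjusted p = 0.128) and mt-Tp with 1.27 (SE 0.55, adjusted p = 0.182). For mt-Rnr2 the controls had 2663, 3846, 1017 and 662 CPM and the STZ-treated libraries 846, 943, 1208, 1063 and 649 CPM. The groups overlapped, because 2 controls were high and 2 were in the range of the treated libraries. Without control replicate 4, mt-Rnr2 passed (log2 change -1.57, adjusted p = 0.0397). DESeq2 and limma called 0 of the 28. In the same comparison 15 of 24 proximal tubule markers fell, with summed levels of 16205 to 24746 CPM in controls and 7545 to 14715 in STZ-treated libraries, and 5 of 10 macrophage, 3 of 7 parietal epithelial and 2 of 9 mesangial and smooth muscle markers rose. A further fit also took in each library's proximal tubule marker score (the mean log2 CPM of the list). In it mt-Co1 changed sign, as listed in the section on processing, and mt-Rnr2 kept its direction. That fit called 34 genes in all, against 1058, and 0 of them were mitochondrial. The part of the macrophage, parietal epithelial and mesangial and smooth muscle markers was not tested. The 6 genes not tested were mt-Atp8, mt-Tg, mt-Tq, mt-Ts1, mt-Tt and mt-Tv.

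At 24 weeks 0 of 28 passed, against 0.897% of all genes. Of the 28, 1 (the arginine tRNA mt-Tr) had an unadjusted p under 0.05, as did 1745 of all 16279 genes. DESeq2 and limma also called 0. The log2 changes of the abundant mRNAs were small: -0.38 (SE 0.27, adjusted p = 0.721) for mt-Co1, -0.11 (SE 0.28, adjusted p = 0.955) for mt-Nd1 and -0.05 (SE 0.28, adjusted p = 0.98) for mt-Cytb. The median over the 12 mRNAs tested was -0.09 at 24 weeks and -0.31 at 3 weeks. In the low run the changes at 3 weeks were computed from the few counts described above and had large errors, such as -0.45 (SE 1.07, adjusted p = 0.866) for mt-Atp6.

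**Figure D5:**
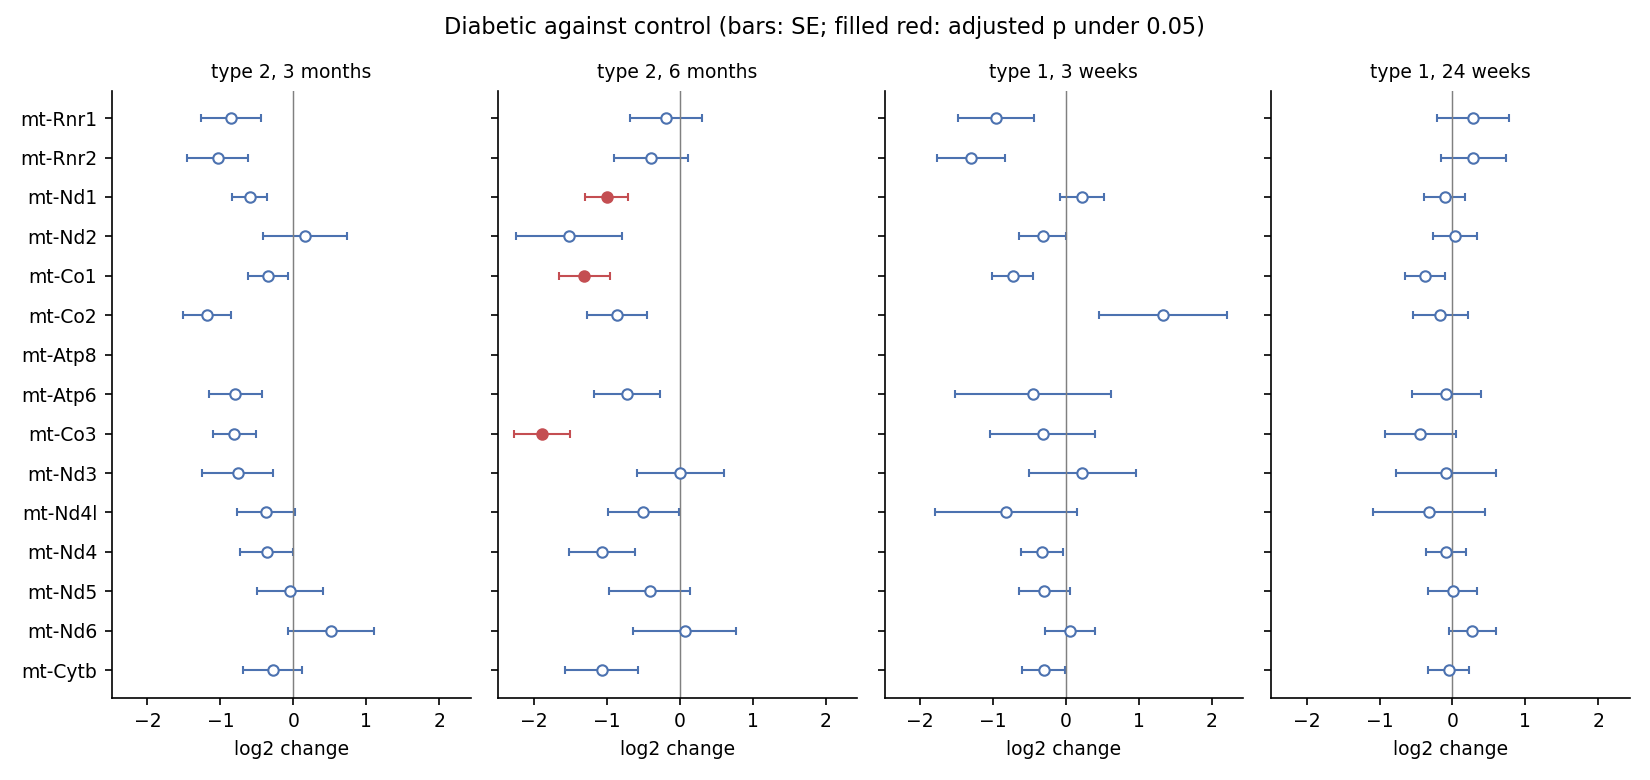
Log2 change, diabetic against control, of the 13 mRNAs and 2 rRNAs in each of the 4 comparisons, with bars of 1 SE; filled red points had an adjusted p under 0.05 and mt-Atp8 was not tested. Only mt-Nd1 (-1.0), mt-Co1 (-1.31) and mt-Co3 (-1.88) are filled, all in type 2 at 6 months.

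Whether the diabetic change differed between times or models was tested directly. Late minus early, 0 of 19 mitochondrial genes passed in the type 2 model and 0 of 28 in the type 1 model, where 0.0% of all genes passed in both. At an unadjusted p under 0.05 there were 2 and 2 mitochondrial genes, and 3252 of 17180 and 1092 of 16279 over all genes. Between models, in 1 fit of all 36 TRAP libraries, 0 of 29 passed for the early change (0.94% of all genes) and 0 of 29 for the late change (0.438%). At an unadjusted p under 0.05 there were 3 of the 29 for the early and 6 for the late change. Over all 18511 genes there were 2586 and 2802. DESeq2 called 1 mitochondrial gene, mt-Te, for the late change and 0 in the other 3 tests, and limma called 0 in all 4. Over all genes the late minus early test in type 2 called 0 in edgeR but 576 with DESeq2, 1911 without diabetic replicate 2 at 6 months and 259 without diabetic replicate 4 at 3 months, with 0 mitochondrial genes in each. The calls at 6 months in the type 2 model are thus not shown to differ from the values in the type 1 model. For mt-Co3 the late change differed between models by a log2 of -1.46 (SE 0.64, adjusted p = 0.268). In the late change 12 of the 13 mRNAs had a lower value in type 2 than in type 1, at a median log2 difference of -0.90, against -0.005 over all genes. None of the 13 passed, and the value of mt-Atp8 (-4.62, SE 2.45) came from few counts.

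Age moved few of these genes in the type 2 model. In controls 0 of 19 passed between 3 and 6 months (0.0% of all genes), and 0 of 19 with DESeq2 and limma. Of the 19, 1 had an unadjusted p under 0.05, as did 540 of all 17180 genes. In diabetic mice 1 of 19 passed (11.9% of all genes, and 6.65% with a fall): mt-Co3 fell with age, with a log2 change of -1.41 (SE 0.37, adjusted p = 0.0249). Its diabetic values were 12.0, 9.26, 13.1, 5.12 and 5.90 CPM at 3 months and 4.30, 3.52 and 2.69 CPM at 6 months. The exact copy of mt-Co3, Gm28437, had 50, 45, 64, 68 and 44 counts in diabetic libraries at 3 months and 88, 63 and 13 at 6 months. Gene and copy together were not tested. The call did not hold without 1 of 5 libraries (diabetic replicate 1, 2 or 3 at 3 months, or replicate 1 or 3 at 6 months), where 0 genes passed, and 2 or 3 passed without one of the other 3.

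In the type 1 model the comparison of 24 with 3 weeks repeats, gene by gene, the difference of the 3-week libraries. In controls 7 of 28 passed (3.7% of all genes): mt-Co2, mt-Atp6, mt-Co3 and mt-Nd4l were higher and mt-Tl1, mt-Ti and mt-Te lower at 24 weeks. In STZ-treated mice 9 of 28 passed (11.4% of all genes), the same 7 with mt-Tr and mt-Tp lower. The adjusted p of mt-Co2 was 2.58e-07 in controls and 1.54e-07 in STZ-treated mice. Since several 3-week libraries hold 0 counts, the fitted fold changes of these genes are no bounds and the counts above stand in their place. With 1 library left out, 5 to 7 genes passed in controls, where mt-Nd4l or mt-Ti or both were lost in 8 of 9 fits, and 8 to 11 in STZ-treated mice. The abundant mRNAs did not pass, with log2 changes of 0.41 (SE 0.29, adjusted p = 0.504) for mt-Co1 and 0.38 (SE 0.30, adjusted p = 0.552) for mt-Cytb in controls.

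The same set separated the 2 kinds of control mice at 3 months of age. Of 29 genes tested in eNOS-/- against type 1 controls, 10 passed (3.6% of all genes): mt-Co2, mt-Atp6, mt-Co3 and mt-Nd4l were higher, and mt-Tl1, mt-Ti, mt-Tr, mt-Te and both rRNAs lower, in eNOS-/- mice. The type 1 controls here are the 3-week libraries, so genotype and the 3-week pattern cannot be told apart. The log2 difference was -1.95 (SE 0.52, adjusted p = 0.031) for mt-Rnr1 and -1.87 (SE 0.49, adjusted p = 0.0274) for mt-Rnr2. The lowest type 1 control value of mt-Rnr1 was 323 CPM, within the range of the eNOS-/- controls (210.0 to 625). The rRNAs did not pass in 6 of the 9 fits that left out 1 library, where 5 to 7 genes passed, nor with limma or with no filter on low counts, where 9 and 7 passed.

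The minus-strand mRNA mt-Nd6 and its plus-strand neighbour mt-Cytb were compared within each library, a ratio chosen after the values were seen. In the type 2 model the ratio of counts was 0.349 ± 0.0404 in controls and 0.569 ± 0.165 in diabetic mice at 3 months, and 0.404 ± 0.144 and 0.962 ± 0.550 at 6 months. Type 1 values were 0.483 ± 0.0579 and 0.601 ± 0.0781 at 3 weeks, and 0.479 ± 0.104 and 0.587 ± 0.134 at 24 weeks. The diabetic mean was higher in 4 of 4 pairs, and kidney had 0.269. The log2 differences were 0.66, 1.18, 0.31 and 0.29, with two-sided exact permutation p of 0.0238, 0.0286, 0.0476 and 0.198. After adjustment over the 4 tests they were 0.0571, 0.0571, 0.0635 and 0.198, so none passed. The value of 0.0286 is the smallest that 3 against 4 libraries allow. No source used here says whether the counting used strand, and mt-Nd6 overlaps the end of mt-Nd5 on the other strand.

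Most proteins of mitochondria are encoded in the nucleus, and cytosolic ribosomes read their mRNAs. Lists of nuclear genes that serve the mitochondrial chromosome and its products are given for type 2 diabetic mice at 6 months, where 22.9% of all genes passed, with a median log2 change of -0.01. In all 5 lists the genes that passed were lower in diabetic mice. Markers of podocytes and proximal tubule fell in the same libraries, as given above, and their part in these values was not tested.

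Of 22 genes for copying and transcribing mitochondrial DNA, 4 fell (18.2%; list median -0.37). They were Top1mt, a topoisomerase (log2 change -1.52, adjusted p = 0.00537), Mterf4 (-1.26, 0.0241), the exonuclease Mgme1 (-0.97, 0.00365) and the transcription factor Tfb2m (-0.63, 0.0444). Of 26 genes for RNA processing and decay, 7 fell (26.9%; median -0.45), among them Mto1, a tRNA-modifying enzyme (-1.20, 0.000707), Mtpap, the poly(A) polymerase (-1.04, 0.0154), Pnpt1, an exoribonuclease (-0.98, 0.0120), and Elac2, which cuts tRNA 3′ ends (-0.62, 0.0196). Of 27 translation factors and tRNA synthetases, 9 fell (33.3%; median -0.44), including Yars2 (-1.60, 0.0113), the initiation factor Mtif3 (-0.95, 0.0102), the recycling factor Mrrf (-0.83, 0.0197) and Cars2 (-0.81, 0.0158). These are 3 lists whose products act on the mitochondrial transcripts themselves.

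Of 76 mitochondrial ribosomal protein genes, 15 fell (19.7%; median -0.58), such as Mrpl42 (log2 change -1.24, adjusted p = 0.0109), Mrps11 (-1.18, 0.00432), Mrps35 (-1.0, 0.00263) and Mrps5 (-0.64, 0.0129). Of 70 nuclear-encoded subunits of complexes I, III, IV and V, 24 fell (34.3%; median -0.64). Among them were the ATP synthase subunits Atp5d (-0.97, 0.0111) and Atp5j (-0.92, 0.00806) and the complex III subunits Uqcrc2 (-0.93, 0.00659) and Uqcrfs1 (-0.58, 0.0124). The share that fell, 18.2% to 34.3% in the 5 lists, compares with 11.7% of all genes. The 12 mRNAs of the mitochondrial chromosome had a median of -0.93 in the same comparison. In the other 3 comparisons few genes of these lists passed: Gfm2 in type 2 at 3 months (-0.57, 0.0343), and Mterf3 (-0.89, 0.0451), Lars2 (-1.86, 0.0330) and Mrps7 (-0.60, 0.0142) in type 1 at 3 weeks, all lower in diabetic mice. At 24 weeks of STZ 0 genes of the 5 lists passed.

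Across libraries the summed chrM level was set against the marker scores of the libraries, the mean log2 CPM of each marker list. For the proximal tubule score Pearson's r was 0.42 in the 17 type 2 libraries (permutation p = 0.0913; Spearman's rho 0.40, p = 0.115) and 0.41 in the 19 type 1 libraries (p = 0.0837; rho 0.41, p = 0.0831). For the podocyte score r was 0.37 (p = 0.139; rho 0.47, p = 0.0591) and -0.28 (p = 0.246; rho -0.34, p = 0.153). None of the 4 passed after adjustment (adjusted permutation p of 0.183 to 0.246). Without the 2 libraries farthest from the median score, r for the proximal tubule score was 0.38 and 0.32, and for the podocyte score 0.46 and -0.36. On deviations from group means the 4 values were 0.04 and 0.33 for proximal tubule and 0.03 and -0.44 for podocyte, in the same order. Within early and late times the proximal tubule r was 0.45 (10 libraries) and 0.39 (7) in type 2, and 0.49 (9) and 0.27 (10) in type 1.

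The nuclear genes whose log2 CPM was most like the chrM sum over the 36 TRAP libraries, among genes with a mean of at least 10 CPM, were Trpc1 (r = 0.65), Nus1 (0.64), Ptgfr (0.63), Acad10 (0.63), Xpr1 (0.61), Slc22a5 (0.61), Sfrp1 (0.60), Fuca1 (0.60), Ttc14 (0.59) and Mlec (0.58). Trpc1 encodes a cation channel, Nus1 a subunit of the enzyme that makes dolichol precursors, Ptgfr the prostaglandin F receptor and Slc22a5 a carnitine transporter. These are descriptions over libraries that share groups and depth, with no test.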

How the data were processed

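Mitochondrial genes were analysed in 36 TRAP libraries and 1 whole-kidney library. The deposited count table holds whole-number read counts per gene, and the deposited FPKM table holds fragments per kilobase of gene, scaled by the authors to the library total, that match count over length and total within 1% for 99.9995% of values. Per the submitters' processing notes, cutadapt 1.16, STAR, FastQC and featureCounts 1.15.2 were used with mm9. The coordinates in the deposited tables match GENCODE M21 on GRCm38 for the 34 genes, so that build is given here. Per the labels' protocols, libraries were made with the NuGEN Ovation mouse kit from DNase-treated RNA, with cDNA fragmented to 200 bp. The strand setting and the treatment of multiply placed reads are named by no source used here, and 3 further chrM genes of GENCODE M21 (mt-Tf, mt-Td and mt-Tk) are not analysed here.

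Counts were tested with edgeR 4.0.16 in R 4.3.3 (TMM scaling, filterByExpr by group, robust quasi-likelihood), with 17 type 2 libraries, 19 type 1 libraries, or all 36 for contrasts between models. P-values were adjusted by Benjamini-Hochberg over all genes tested, with a threshold of 0.05. The script was tested on simulated data. Shares and ratios were compared by two-sided exact permutation tests, and correlations by permutation with 100000 resamples. Copies were searched for with BLAST 2.17.0 among GENCODE M21 transcripts. Alternatives were DESeq2 1.42.0, limma 3.58.1 on log2(FPKM + 0.1), scaling by library totals, no filter on low counts, a replicate block, and leaving out each library. Depth was 6702120 to 37786025 counts, so genes under 3 counts in a library cannot be told from 0 there.

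Named genes were both rRNAs, 7 mRNAs of the 4 complexes, members called in a diabetic comparison, the 3 tRNAs with the highest mean count, the extremes of the kidney ratio, the 10 nuclear genes most correlated with the chrM sum, and up to 4 called genes per nuclear list. Other members singled out, such as the low run, mt-Nd2 and mt-Te beyond its rule, were chosen after their values were seen. The genes and lists were chosen with earlier results of these data known.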

Additional observations from a re-analysis of the deposited data

Results flagged for a closer look

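In 84 checks of single values within groups of 4 or 5 libraries, 6 values, in 5 libraries, lay far from the others of their group, where chance marks about 1 in 20. The diabetic type 2 library replicate 1 at 3 months had 1384 CPM of mt-Nd2, against 214 to 475 in the other 4, and 1013 CPM of mt-Nd6, against 184 to 256. Control replicate 2 of type 2 at 6 months had 1691 CPM of mt-Nd2, against 223 to 453. Control replicate 3 of type 2 at 3 months had 3088 CPM of mt-Co1, against 1543 to 1933. STZ-treated replicate 4 at 3 weeks had 37.3% of its chrM counts in rRNA, against 26.6% to 29.5%. Control replicate 4 of type 1 at 3 weeks had 0.209 CPM of mt-Atp6, from 4 counts, where the other 3 had 0.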

How the results depend on the processing

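Of 1151 recomputed values, 1041 kept their direction, their side of the threshold or their size. The covariates, the set of fewer libraries (without the 3 type 2 and 1 type 1 libraries with high mt-Nd2 or low depth) and the mt-Nd6 ratios were chosen after seeing the data. The cause of each change was not tested, except where fewer libraries or genes entered. The median TRAP over kidney ratio of all 34 genes was 0.316, and 0.177 or 0.582 with 0.1 or 2 CPM added, 0.0837 over genes with at least 100 kidney counts, 0.411 against all 36 TRAP libraries, and 0.288 to 0.329 without one library.

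For genes called in type 2 at 3 months (0), DESeq2, the replicate block and the podocyte covariate each gave 1, fewer libraries gave 2, and leaving one library out 0 to 1. At 6 months (3) the replicate block gave 5, adding mt-Nd4 and mt-Cytb, each covariate gave 0, fewer libraries gave 1, and leaving one out 1 to 3. Diabetic mice at 6 against 3 months (1) had 3 with DESeq2, 0 in the fit of all 36 libraries and 0 to 3 with one left out. The late difference between models (0) had 1 with DESeq2. Type 1 at 3 weeks had 0 to 1, and eNOS-/- against type 1 controls 5 to 10 of 10, with one left out. The difference in chrM share at 24 weeks ran from -0.109 to 0.0867 percentage points with one left out.

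Over all genes, the number called moved by more than 1.5 times in these fits. Type 2 at 3 months (685 genes) had 1252 with DESeq2, 403 with the replicate block, 215 with the proximal tubule and 1245 with the podocyte covariate. Type 2 at 6 months (3934) had 2575 with the replicate block, 13 and 130 with the covariates and 1391 with fewer libraries. Type 1 at 3 weeks (1058) had 1735 with DESeq2, 34 with the proximal tubule covariate and 1636 in the fit of all 36. At 24 weeks (146) it had 423 with DESeq2, 82 with the replicate block, 5 and 293 with the covariates, 262 with fewer libraries and 271 in the fit of all 36. Diabetic mice at 6 against 3 months (2043) had 3453 with DESeq2 and 1234 in the fit of all 36, and type 2 controls (0) 18 with DESeq2 and 2 with no filter. Type 1 controls at 24 against 3 weeks (603) had 1258 with DESeq2, 368 with no filter and 1206 in the fit of all 36. Controls of eNOS-/- against type 1 (667) had 1159 with DESeq2, 1008 with limma and 411 with no filter. Late minus early, type 2 (0) had 576 with DESeq2, 4 with limma and 3 with no filter, and type 1 (0) had 64, 4 and, in the fit of all 36, 14. Between models the early difference (174) had 462 with DESeq2, 102 with limma and 99 with no filter, and the late one (81) had 470 with DESeq2 and 22 with no filter. With one library left out the ranges were 404 to 737 and 1932 to 5350 in type 2 at 3 and 6 months, 611 to 1350 and 67 to 262 in type 1 at 3 and 24 weeks, 50 to 4455 for diabetic mice at 6 against 3 months, 365 to 612 for type 1 controls and 1282 to 1863 for STZ-treated mice by age, 407 to 783 for eNOS-/- against type 1 controls, 0 to 1911 and 0 to 3 late minus early in type 2 and type 1, and 75 to 243 and 4 to 549 for the early and late differences between models.

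Uncalled genes changed sign, in log2 change. In type 2 at 3 months mt-Co1 was 0.10 with the proximal tubule covariate and mt-Nd6 -0.30 with fewer libraries (-0.30 to 0.76 with one left out). At 6 months mt-Rnr1 was 0.24 with limma, 0.083 with library totals and 0.079 with fewer libraries (-0.54 to 0.43 with one left out), and mt-Rnr2 0.028 with limma (-0.81 to 0.23). There mt-Nd6 was -0.21 with the replicate block, -0.96 with the proximal tubule and -0.99 with the podocyte covariate (-0.68 to 0.83). In type 1 at 3 weeks the proximal tubule covariate gave 0.31 for mt-Rnr1, 0.26 for mt-Nd4, 0.48 for mt-Cytb and 0.046 for mt-Co1. There mt-Co3 was 0.23 with limma and 0.33 with the replicate block (-0.68 to 0.94), mt-Atp6 0.025 and 0.11 (-1.03 to 2.73), and mt-Nd6 -0.13 with the podocyte covariate (-0.067 to 0.24). At 24 weeks the proximal tubule covariate gave 0.26 for mt-Nd1, 0.31 for mt-Nd4, 0.49 for mt-Cytb, 0.15 for mt-Co1 and 0.0051 for mt-Atp6. Limma gave 0.020 for mt-Nd1 and 0.035 for mt-Atp6, the replicate block 0.0099 for mt-Atp6, and one library left out -0.28 to 0.11 for mt-Nd1, -0.25 to 0.034 for mt-Nd4, -0.22 to 0.095 for mt-Cytb and -0.33 to 0.23 for mt-Atp6. The log2 ratio of mt-Nd6 was -0.11 at 3 weeks over mt-Nd1.

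Replicate numbers showed no clear pairing of the libraries. Same-numbered libraries correlated between -0.0819 and 0.163, and in no comparison did every library correlate best with its own number. With 3 to 5 pairs per comparison, this check cannot exclude a shared batch. No replicate block was fitted for ages within a group or for eNOS-/- against type 1 controls. With the replicate block 0 and 1 genes were called late minus early in type 2 and type 1, and 118 and 3 for the early and late differences between models, none mitochondrial.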
